A study of Mus musculus with 10 samples.

Results

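The genes Tbx21, Cxcr3, Itgax, Fcrl5, Zbtb32, Zeb2, Il2rb and Il12rb1, which mark T-bet-expressing, atypical B cells, were followed across 10 expression arrays of splenic B cells. These 8 genes were chosen by symbol from 19937 genes that carried a probe set with a single symbol. Each of the 8 had 1 probe set, and no filter on low values was applied, so all 8 stayed in every comparison. The list was drawn up after the difference between floxed and wild-type arrays was known, so their values in that comparison are a description and carry no test here.

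The cells were sorted from spleen as B220+CD22+ B cells of CBAxC57BL/6J mice and hybridised to Affymetrix Mouse Gene 1.0 ST arrays. There were 3 wild-type arrays, 3 from Sca1-Bcl6(floxed) mice (floxed) and 4 from Sca1-Bcl6(delta) mice (delta). The floxed mice carry a transgene of mouse Bcl6, an IRES and eGFP between loxP sites in a Ly6 (Sca1) vector. The delta mice carry the same transgene together with mb1-Cre, a recombinase made in B lineage cells from the Cd79a locus. The transgenic lines were 2, and the labels give neither the line nor the age of the mouse behind an array. They also do not tie arrays to separate animals, so p-values measure the spread between these arrays, which may be technical.

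T-bet, the product of Tbx21, is a T-box transcription factor best known as the regulator of type 1 helper T cells and NK cells. B cells make it after signals from interferon-gamma, Toll-like receptors and the antigen receptor together, and T-bet-positive B cells with the integrin CD11c accumulate with age, infection and autoimmunity. Such cells, called age-associated or atypical B cells, also carry CXCR3, FCRL5 and the regulator ZEB2.

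The sort and the arrays were checked on markers. Ms4a1, which encodes the B cell protein CD20, had log2 levels of 13.20 to 13.31 over all arrays, and the mean of 9 B cell markers stayed within 0.10 of its wild-type mean in each array. The largest differences in that list between floxed and wild-type arrays were those of Cd22, a gene of the sort itself (0.20), and Cd79b (-0.09). Limma called 0 of 9 in that comparison, with 1 at an unadjusted p under 0.05, beside 12.8% of all genes. Array medians of the RMA intensity spanned 139 to 145. Cd79a, whose locus carries the mb1-Cre insertion, fell in delta against wild-type arrays by 0.48 (SE 0.06, limma adjusted p = 0.0427). Bcl6, the gene of the transgene, was at 9.80 to 10.48 in wild-type, 9.80 to 9.96 in floxed and 9.56 to 9.83 in delta arrays, and no excess was detected. By Xist and Y-linked genes the wild-type arrays had a female pattern, the floxed arrays a male one, delta 1 a male one and delta 2, 3 and 4 a female one. Sex and genotype thus cannot be told apart in floxed against wild-type arrays. Delta 4 stood apart from the other delta arrays in most of the 8 genes, so values are given with and without it.

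The proximal promoters of the genes were examined for the T-box motif GGTGTGA, which T-bet can bind. RefSeq windows (GRCm38.p6) of 300 bases, 250 before the start site and 50 after it, were matched by symbol for 6 of the 8 genes, in 10 windows. On both strands, 0 of the 6 genes held GGTGTGA, beside 4.6% of 27025 genes. The shorter core GTGTGA, which lies within it and was searched after that result was seen, occurred in 1 of 6 genes (Cxcr3) and in 16.4% of 27025 genes. These are counts of letters in a short window, and say nothing of binding elsewhere. The windows before the start site are printed 5′ to 3′ on the gene's strand for Tbx21 itself (chr11:97115332-97115581, minus strand), for Cxcr3 (chrX:101734148-101734397, minus strand) and for Itgax (chr7:128129300-128129549, plus strand), the member that tracked Tbx21 most closely. Capitals mark TCACAC, the core read on the opposite strand, whose first base lies 234 bases before the Cxcr3 start site.
Tbx21: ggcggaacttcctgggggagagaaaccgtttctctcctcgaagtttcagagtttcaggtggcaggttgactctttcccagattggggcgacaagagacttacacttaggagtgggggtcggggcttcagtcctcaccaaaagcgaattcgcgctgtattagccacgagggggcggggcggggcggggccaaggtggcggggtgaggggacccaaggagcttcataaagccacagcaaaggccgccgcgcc
Cxcr3: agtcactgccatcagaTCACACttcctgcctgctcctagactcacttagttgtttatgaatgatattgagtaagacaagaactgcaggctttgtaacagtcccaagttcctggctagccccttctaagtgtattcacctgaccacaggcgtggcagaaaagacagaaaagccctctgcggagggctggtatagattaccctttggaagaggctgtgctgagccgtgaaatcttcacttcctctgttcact
Itgax: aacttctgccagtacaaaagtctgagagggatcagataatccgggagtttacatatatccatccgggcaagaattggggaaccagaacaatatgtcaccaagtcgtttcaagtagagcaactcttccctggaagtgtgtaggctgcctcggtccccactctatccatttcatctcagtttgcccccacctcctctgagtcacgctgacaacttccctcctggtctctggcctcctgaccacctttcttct

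Levels and differences are log2 of the deposited RMA intensity unless a linear intensity is named. Tbx21 (probe set 10390328) had log2 levels of 7.24, 7.39 and 7.21 in wild-type arrays 1, 2 and 3. Its levels were 9.36, 9.70 and 9.12 in floxed arrays 1, 2 and 3. In delta arrays 1 to 4 it was at 8.53, 8.31, 8.40 and 9.82. Every transgenic array lay above every wild-type array, delta 1, 2 and 3 fell between the wild-type and floxed ranges, and delta 4 exceeded all floxed arrays. On the linear scale, the RMA intensity of Tbx21 averaged 156 ± 10.8 over the 3 wild-type arrays (SD). The corresponding mean was 682 ± 141 for the 3 floxed arrays and 483 ± 282 for the 4 delta arrays (SD).

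Zeb2 (10482448) encodes a zinc-finger repressor that acts with T-bet in T cells and NK cells and is needed for age-associated B cells. It was at 9.25, 9.43 and 8.84 in wild-type arrays and at 9.73, 9.91 and 9.86 in floxed arrays. In delta arrays 1 to 4 Zeb2 was at 9.49, 9.04, 9.02 and 10.35. Floxed arrays lay above wild-type arrays, delta 2 and 3 lay within the wild-type range, delta 1 just above it, and delta 4 was the highest of all. Zbtb32 (10562044) encodes a BTB zinc-finger repressor that restrains memory B cell responses. It was at 7.44, 7.43 and 7.46 in wild-type arrays, at 8.43, 8.49 and 8.29 in floxed arrays, and at 8.11, 7.42, 8.08 and 8.53 in delta arrays 1 to 4. Wild-type arrays differed little in Zbtb32 (SD 0.01, n = 3), and delta 2 matched them while the other delta arrays did not.

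Among the receptors, Cxcr3 (10606058) encodes the receptor for CXCL9, CXCL10 and CXCL11 and is a known T-bet target. It was at 7.33, 7.26 and 7.03 in wild-type, at 9.09, 9.72 and 8.93 in floxed and at 9.07, 8.16, 8.94 and 9.12 in delta arrays 1 to 4. Here delta 1, 3 and 4 lay within the floxed range, and delta 2 lay between the floxed and wild-type ranges. Cxcr3 was thus the member in which delta arrays came closest to floxed arrays relative to the wild-type difference, with means of 8.82 ± 0.45 (SD, n = 4) and 9.25 ± 0.42 (SD, n = 3).

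Itgax (10557895) encodes CD11c, an integrin chain typical of dendritic cells and of age-associated B cells. Its levels were 6.84, 6.74 and 6.44 in wild-type, 8.35, 9.22 and 8.19 in floxed and 7.36, 7.06, 7.29 and 9.39 in delta arrays. All delta arrays exceeded all wild-type arrays, but delta 1, 2 and 3 stayed well below the floxed arrays. Fcrl5 (10492983), which encodes an Fc receptor-like protein of marginal zone and atypical memory B cells, was at 9.58, 9.65 and 10.05 in wild-type arrays. It was at 10.72, 10.86 and 10.90 in floxed and at 10.22, 10.29, 10.41 and 10.96 in delta arrays 1 to 4. Again the transgenic arrays all lay above the wild-type arrays, with delta 1, 2 and 3 in between.

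Il2rb (10430344) encodes the signalling chain shared by the receptors for IL-2 and IL-15, and T-bet drives it in NK cells. It was at 6.39, 6.58 and 6.49 in wild-type, at 8.01, 8.11 and 7.53 in floxed and at 6.73, 6.56, 7.08 and 8.33 in delta arrays. Delta 2 lay inside the wild-type range, delta 1 and 3 a little above it, and delta 4 above every floxed array. Il12rb1 (10572497), the chain shared by the receptors for IL-12 and IL-23, spanned only 0.37 on the log2 scale over all 10 arrays. It was at 7.85, 7.77 and 7.69 in wild-type, at 8.06, 7.93 and 7.78 in floxed and at 7.79, 7.79, 7.90 and 7.89 in delta arrays, and all groups overlapped.

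**Figure D1:**
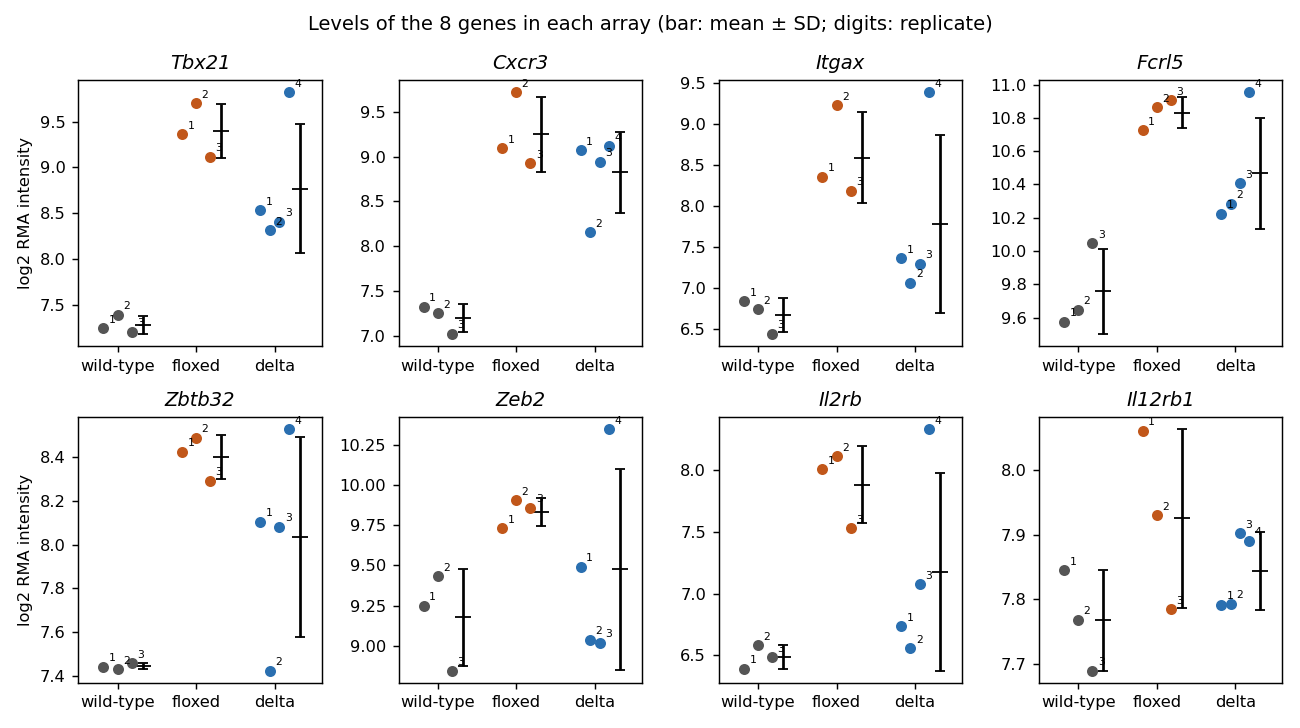
Log2 RMA intensity of each gene in each array, with the replicate number beside each point and the mean ± SD beside each group (n = 3, 3 and 4). Floxed points lie above wild-type points in 7 of 8 panels, and in 7 of 8 panels delta 4 is the highest delta array.

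In floxed arrays the mean of all 8 genes was above the wild-type mean, by 0.16 to 2.11 on the log2 scale with a median of 1.24, beside a median of -0.02 over all genes. Floxed and wild-type arrays did not overlap in 7 of 8 genes, all higher, as was the case for 7.6% of all genes in that direction. The limma fit over all genes called 3 of the 8 higher (Tbx21, Cxcr3 and Fcrl5), where it called 0.391% of all genes higher. With single arrays left out this count was 1 without wild-type 1 or 2 or any of the floxed arrays, and 6 without delta 4. These counts describe the comparison that the list was chosen on, and nothing is read from them. The differences were 2.11 for Tbx21 (SE 0.32), 2.04 for Cxcr3 (SE 0.25), 1.92 for Itgax (SE 0.50), 1.40 for Il2rb (SE 0.36) and 1.07 for Fcrl5 (SE 0.18). They were 0.96 for Zbtb32 (SE 0.20), 0.66 for Zeb2 (SE 0.29) and 0.16 for Il12rb1 (SE 0.08).

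Within the floxed group, floxed 2 had the highest level of Tbx21, Cxcr3, Itgax, Zbtb32, Zeb2 and Il2rb. Floxed 1 was the highest only in Il12rb1 and floxed 3 only in Fcrl5. The spread within the group was widest for Itgax, whose highest floxed array was 2.05-fold above its lowest, and narrowest for Zeb2, at 1.13-fold.

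Delta against wild-type arrays asked whether the same genes stay raised after exposure to Cre. This comparison shares the 3 wild-type arrays with the one the list was chosen on, so it is not fully independent. In it 1 of 8 genes, Cxcr3, passed the threshold of 0.05 after Benjamini-Hochberg adjustment over 19937 genes, where limma called 0.0301% of all genes higher and 0.0451% lower. Cxcr3 rose 3.07-fold (log2 1.62, SE 0.23, 95% CI 1.11 to 2.13, limma adjusted p = 0.0444). That call was kept without delta 2 (adjusted p = 0.00611) and without floxed 2 (adjusted p = 0.0436) and ended when any other single array was left out. The limma adjusted p of Cxcr3 was then 0.123 without delta 1, 0.106 without delta 3, 0.0696 without delta 4, 0.0754 without floxed 1 and 0.0866 without floxed 3. It was 0.130, 0.211 and 0.0821 without wild-type 1, 2 and 3, and its difference stayed between 1.52 and 1.84.

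The other members did not pass in delta against wild-type arrays. Tbx21 differed by 1.49 (SE 0.30, 95% CI 0.83 to 2.14, limma adjusted p = 0.154). Without delta 4 its difference was smaller, at 1.14, but its spread was smaller too, and the limma adjusted p was 0.0156. Leaving out any other array left Tbx21 short of the threshold, with an adjusted p of up to 0.427. Itgax differed by 1.10 (95% CI 0.08 to 2.13, limma adjusted p = 0.595), Fcrl5 by 0.71 (95% CI 0.35 to 1.07, adjusted p = 0.187) and Il2rb by 0.69 (95% CI -0.04 to 1.43, adjusted p = 0.667).

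Zbtb32 differed by 0.59 (95% CI 0.18 to 1.01, limma adjusted p = 0.411), and by 0.80 without delta 2, where it passed (adjusted p = 0.0401). Zeb2 differed by 0.30 (95% CI -0.29 to 0.89, adjusted p = 0.870) and Il12rb1 by 0.08 (95% CI -0.09 to 0.24, adjusted p = 0.879). Without delta 4 the difference of Zeb2 was 0.007, that of Il2rb 0.31 and that of Itgax 0.57. All delta arrays lay above all wild-type arrays in 4 of 8 genes (Tbx21, Cxcr3, Itgax and Fcrl5), as they did in 3.75% of all genes; 0 of 8 lay wholly below, against 5.5% of all genes. The median difference of the 8 was 0.70, beside -0.01 over all genes.

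**Figure D2:**
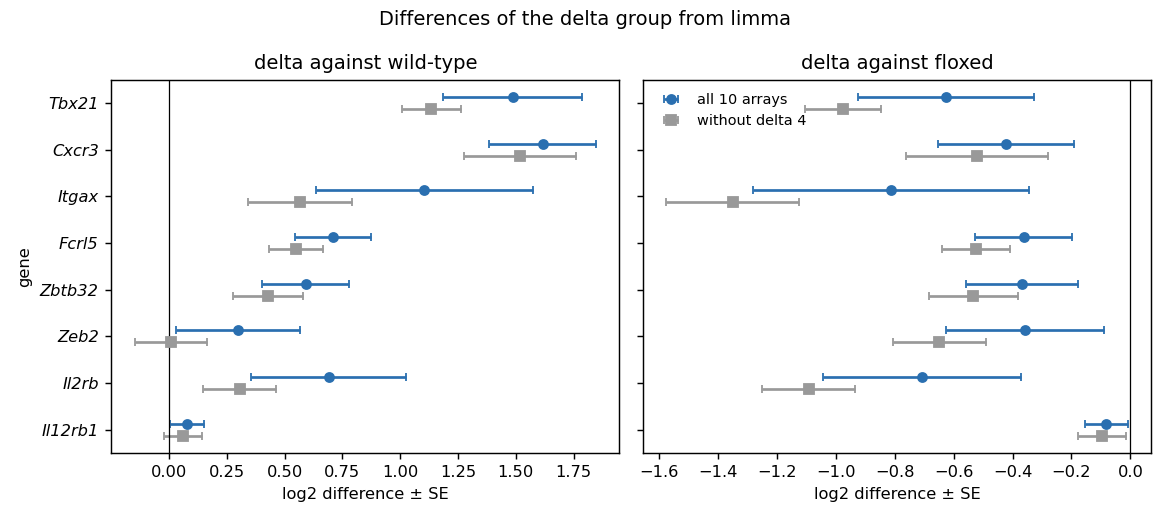
Log2 difference ± SE from limma of delta against wild-type arrays (left) and delta against floxed arrays (right) for each gene, from all 10 arrays (circles) and without delta 4 (squares). Leaving out delta 4 moves Itgax from 1.10 to 0.57 on the left and from -0.81 to -1.35 on the right, while Cxcr3 moves from 1.62 to 1.52 and from -0.42 to -0.52.

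Delta against floxed arrays asked whether the transgenic groups differ from each other, and shares the floxed arrays with the comparison that the list was chosen on. Of the 8 genes 0 passed in the limma fit, which called 0.00502% of all genes. Fcrl5 alone had an unadjusted p under 0.05, as had 6.42% of all genes (limma fit across all genes, unadjusted p = 0.0491, not an exact test). The delta mean was below the floxed mean in all 8 genes, by 0.08 for Il12rb1 and up to 0.81 for Itgax, with a median of -0.40 beside 0.005 over all genes. For Tbx21 the difference was -0.63 (95% CI -1.28 to 0.03, limma adjusted p = 0.787), for Il2rb -0.71 (95% CI -1.44 to 0.03, adjusted p = 0.784) and for Cxcr3 -0.42 (95% CI -0.93 to 0.09, adjusted p = 0.823). The intervals thus include values from no difference to a fall of more than 1 unit for Tbx21 and Il2rb.

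Without delta 4 the falls against floxed arrays were larger, at -0.98 for Tbx21, -1.35 for Itgax and -1.09 for Il2rb, with limma adjusted p of 0.0563, 0.0746 and 0.0610. Delta 4 lay within or above the floxed range in each of the 8 genes, and the groups overlapped in all of them. Over all genes the groups did not overlap in 6.96%, of which delta was higher in 3.36% and lower in 3.61%. By group means the order was wild-type, delta, floxed in all 8 genes. The neighbours delta and floxed did not pass the adjusted test in any of them. A list chosen on the difference between floxed and wild-type arrays favours that order in advance, so nothing is read from it.

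The SD of log2 levels was larger among delta arrays than in either other group in 7 of 8 genes. Delta 4 was the highest delta array in 7 of 8 genes and the highest of all 10 arrays in 6, while it was the highest delta array for 29.3% of all genes. It lay above the mean of delta 1, 2 and 3 by 2.15 in Itgax, 1.54 in Il2rb, 1.40 in Tbx21 and 1.16 in Zeb2. At least as large an excess was seen in 0.035%, 0.08%, 0.12% and 0.191% of all genes, in that order. In Cxcr3 the excess was 0.39 and in Il12rb1 0.06. Delta 2 was the lowest delta array in 5 of the 8 genes, with a median of 0.23 above the wild-type means, against 0.56 in delta 1, 0.63 in delta 3 and 1.52 in delta 4. Floxed arrays 1, 2 and 3 had medians of 1.25, 1.37 and 1.10.

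**Figure D3:**
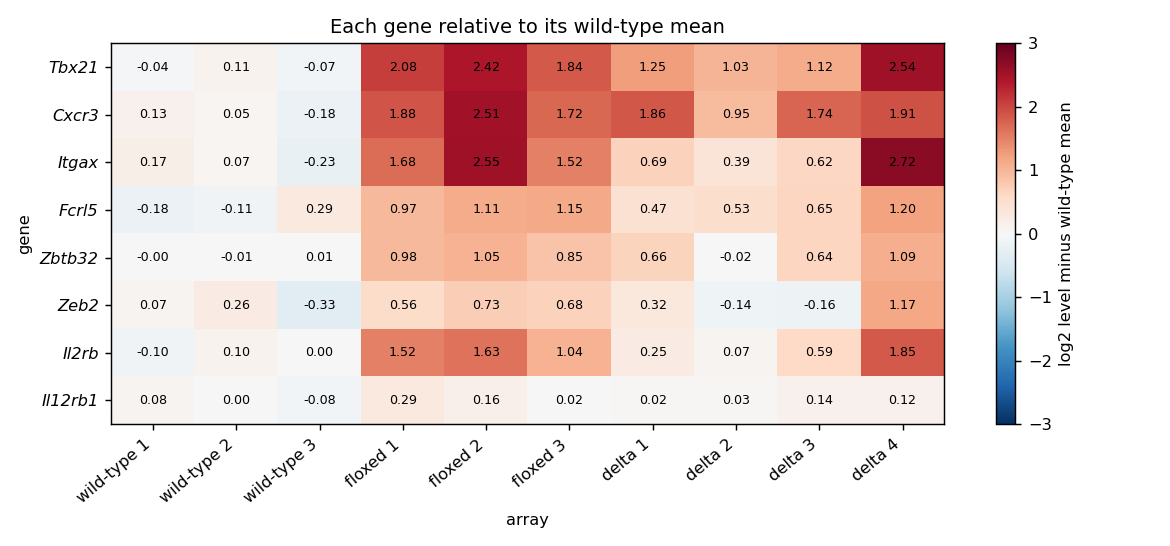
Log2 level of each gene (rows) in each array (columns) minus the wild-type mean of that gene, with red above and blue below it. Delta 4 resembles the floxed arrays, with Itgax at 2.72 and Tbx21 at 2.54, while delta 2 is near wild-type in Zbtb32 (-0.02), Zeb2 (-0.14) and Il2rb (0.07).

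Delta 1, the delta array of male pattern, lay within or above the floxed range in 2 of the 8 genes (Cxcr3 and Il12rb1), as against 1 in delta 2, 2 in delta 3 and 8 in delta 4, all of female pattern. In the fits with sex as a covariate, given below, the sex term rests on that 1 male delta array. The part of sex in these levels thus cannot be separated from delta 1.

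The 8 genes followed Tbx21 across the 10 arrays to different degrees. Pearson's r with Tbx21 was 0.952 for Itgax, 0.941 for Fcrl5, 0.933 for Zbtb32, 0.932 for Il2rb, 0.927 for Cxcr3, 0.807 for Zeb2 and 0.642 for Il12rb1. Spearman's rho was 0.988, 0.891, 0.879, 0.964, 0.939, 0.879 and 0.636 in the same order. Of all genes 1.85% had an r over 0.8. These values are a description without a test: the arrays fall into 3 groups, the list was chosen on a group difference, and so a pooled r largely restates that difference. Without delta 4 and wild-type 3, the arrays farthest from the median of Tbx21, r fell to 0.667 for Zeb2 and 0.546 for Il12rb1 and was 0.909 to 0.966 for the other genes.

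Deviations from the group means remove the group difference. On these, r with Tbx21 was 0.983 for Itgax, 0.955 for Il2rb, 0.889 for Zeb2, 0.783 for Zbtb32, 0.711 for Fcrl5, 0.586 for Cxcr3 and 0.316 for Il12rb1. Much of this came from delta 4. Without that array r was 0.903 for Itgax, 0.797 for Cxcr3, 0.700 for Il2rb, 0.475 for Zbtb32, 0.449 for Zeb2, 0.330 for Il12rb1 and -0.222 for Fcrl5. On these pooled deviations Itgax therefore kept step with Tbx21 with and without delta 4, and Fcrl5 did not. Among the wild-type arrays alone, Itgax was highest in wild-type 1 and Tbx21 in wild-type 2.

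**Figure D4:**
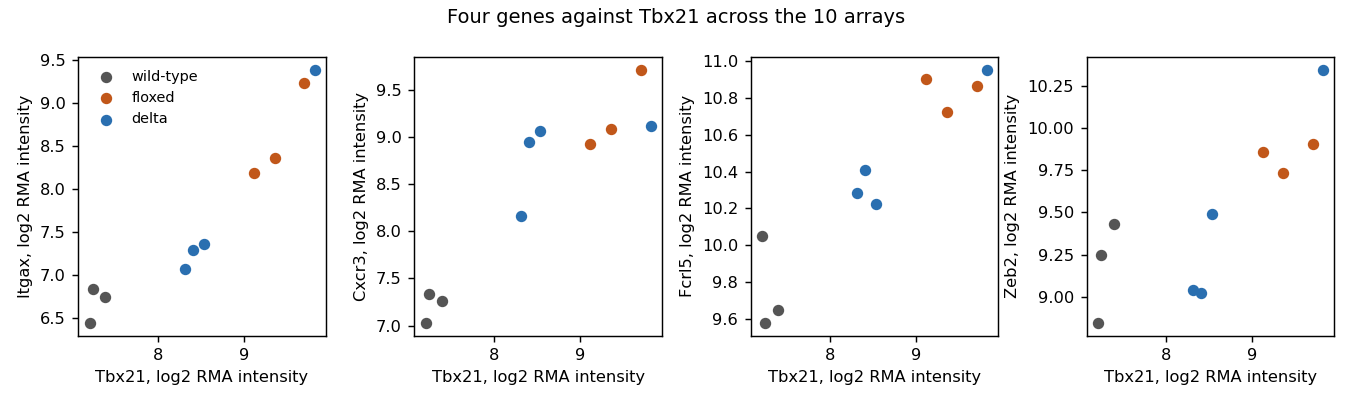
Log2 RMA intensity of Itgax, Cxcr3, Fcrl5 and Zeb2 (y axes) against that of Tbx21 (x axes) in the 10 arrays, coloured by group. Itgax rises along with Tbx21 across groups and within the floxed and delta groups. Cxcr3 is near its floxed level in delta arrays with a Tbx21 level of 8.40 to 8.53, and delta 4 is the highest point for Zeb2.

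Genes outside the list whose pattern was most like that of Tbx21 were taken by r among 585 genes with a log2 range of at least 1. The 10 highest were Trabd2b (r = 0.994), Laptm4b (0.978), Adgre1 (0.976), Fgl2 (0.972), Nt5e (0.971), Gng12 (0.964), Art3 (0.961), Phactr2 (0.961), Anxa2 (0.958) and Mreg (0.957). Of these 585 genes 18.8% had an r over 0.8. Trabd2b was at 7.12 to 7.28 in wild-type, 8.47 to 8.76 in floxed and 7.93 to 8.79 in delta arrays, and its r was 0.975 on deviations from group means and 0.824 on these without delta 4. Adgre1, which encodes an adhesion receptor known as a macrophage marker, had r values of 0.965 and 0.869 in the same way, whereas Laptm4b fell from 0.882 to 0.158. The 5 lowest were Cdk6 (r = -0.927), Cd93 (-0.903), Bmf (-0.894), Csrp2 (-0.893) and Mx2 (-0.893). Cd93, a marker of immature B cells, was at 7.77 to 8.88 in wild-type arrays and at 6.57 to 6.92 in floxed arrays, with the lowest level, 6.50, in delta 4.

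The signals that induce T-bet were measured in 15 of 16 listed genes (interferon-gamma and IL-21 receptors, Toll-like receptors and their kinases and factors). This list and those that follow were drawn up with earlier results of these arrays known. In floxed against wild-type arrays limma called 0 of 15, where it called 0.552% of all genes, and the median difference was 0.11. Floxed arrays lay wholly above wild-type arrays in 6 of 15 and wholly below in 0, beside 7.6% and 9.13% of all genes. The largest rise was that of Irf1, an interferon regulatory factor gene (0.35, limma adjusted p = 0.121). Of the 15, 3 had an unadjusted p under 0.05 in the limma fit, as had 12.8% of all genes. Myd88, the adaptor of Toll-like receptors, was at 9.93 to 10.04 in floxed and 9.60 to 9.65 in wild-type arrays (0.34, limma adjusted p = 0.0909). Irf8, an interferon regulatory factor of B cells, was at 11.96 to 12.09 against 11.64 to 11.76 (0.32, adjusted p = 0.0684). In delta arrays limma called 0 of 15 against wild-type, where it called 0.0752% of all genes, and 0 of 15 against floxed. An unadjusted p under 0.05 was reached by 3 and 4 of the 15, beside 7.89% and 6.42% of all genes. For the lists that follow, the shares of all genes at an unadjusted p under 0.05 are the same. They are 12.8% in floxed against wild-type, 7.89% in delta against wild-type and 6.42% in delta against floxed arrays.

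Genes that T-bet activates in T cells and NK cells were mostly near their wild-type levels. Of 11 measured genes limma called 0 in each of the 3 comparisons, with 2 at an unadjusted p under 0.05 for floxed over wild-type, 3 for delta over wild-type and 2 for delta over floxed. Their median differences were 0.11, 0.02 and -0.05 in that order. Ifng, the interferon-gamma gene, stayed at 6.65 to 6.81 in all arrays, and the granzyme gene Gzmb at 5.21 to 5.55. Gzmb lay below the 25th percentile of mean gene levels, 6.11, and RMA shrinks differences of dim probe sets. Ccl3 had the largest difference of the list in delta against wild-type arrays (1.07, limma adjusted p = 0.671). It was at 7.66, 6.98 and 7.21 in wild-type and at 8.24, 8.10 and 7.56 in floxed arrays. In delta arrays 1 to 4 Ccl3 was at 10.01, 7.59, 7.18 and 8.65. S1pr5, a sphingosine-phosphate receptor gene of NK cells, was at 6.98 to 7.20 in wild-type, 7.73 to 8.03 in floxed and 7.31 to 8.54 in delta arrays, again with delta 4 on top (0.80 in floxed against wild-type, limma adjusted p = 0.223). Ccl5, a chemokine gene of T cells and NK cells, was at 10.34, 8.35 and 9.13 in floxed arrays 1, 2 and 3 against 8.47 to 8.55 in wild-type arrays, and did not follow Tbx21.

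Partners and relatives of the members were measured in 17 of 18 genes. In floxed against wild-type arrays 2 of 17 rose, beside 0.391% of all genes, 0 fell and the median was 0.07. Itgb2, the beta chain that pairs with CD11c, rose by 0.51 (SE 0.09, limma adjusted p = 0.0395) and Itgal, the alpha chain of LFA-1, by 0.33 (SE 0.06, adjusted p = 0.0420). Itgb2 was at 10.56, 10.56, 10.55 and 10.86 in delta arrays 1 to 4, against 10.29 to 10.44 in wild-type and 10.76 to 10.96 in floxed arrays. Limma called 0 of 17 in either comparison of the delta arrays, with 2 at an unadjusted p under 0.05 in each. Itgam, which encodes the myeloid integrin chain CD11b and is named after its values were seen, had the largest difference of the list, 1.12 in floxed against wild-type arrays (SE 0.41, limma adjusted p = 0.276). It was at 6.18, 6.49 and 6.54 in wild-type arrays, at 7.40, 7.90 and 7.25 in floxed arrays and at 6.91, 6.61, 6.83 and 8.58 in delta arrays 1 to 4. Both transgenic groups lay above the wild-type arrays in Itgam, and delta 4 was the highest array, as in Itgax. The relatives Zeb1 and Eomes had differences of -0.03 and 0.22 in floxed against wild-type arrays (limma adjusted p = 0.904 and 0.564).

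Further genes known to be raised in age-associated B cells were higher in part. In floxed against wild-type arrays 3 of 14 rose, beside 0.391% of all genes, and 0 fell. In 11 of 14 the groups did not overlap, all higher, beside 7.6% of all genes, and the median was 0.69. This list too was drawn up with earlier results of these arrays known, so the counts are a description and nothing is read from them. The 3 called genes were Anxa2, a membrane-binding annexin gene, Ctla4, a checkpoint receptor gene, and Nt5e, which encodes the ectonucleotidase CD73. Anxa2 and Nt5e were also among the 10 genes named above for their r with Tbx21. In delta against wild-type arrays 1 of 14 passed, beside 0.0301% of all genes called higher: Anxa2 rose by 0.65 (SE 0.08, limma adjusted p = 0.0427), and the list median was 0.42. Limma called 0 of 14 in delta against floxed arrays, with 3 at an unadjusted p under 0.05 and a median of -0.30. Nt5e was at 8.08, 8.18, 8.60 and 9.98 in delta arrays 1 to 4, against 6.61 to 7.13 in wild-type and 8.96 to 9.65 in floxed arrays, so delta 4 was again the highest. Of 7 genes lowered in such cells, limma called 1 lower in floxed against wild-type arrays, beside 0.161% of all genes, and the list median was -0.14. The called gene was Cd93, which fell by 1.58 (SE 0.26, limma adjusted p = 0.0282). Fcer2a differed by -0.34, and the groups did not overlap. Cr2, Cd24a, Ccr7, Cxcr5 and Il4ra differed by -0.13, -0.18, -0.14, -0.04 and -0.02, with overlapping groups. Limma called 0 of 7 in delta against wild-type arrays, with 2 at an unadjusted p under 0.05 and a list median of -0.14.

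Other B cell regulators had small median differences. Limma called 0 of 13 in each comparison, with 3, 3 and 2 at an unadjusted p under 0.05, and the medians were -0.07, -0.02 and 0.03. Id2, an inhibitor of E proteins that T-bet-positive lymphocytes carry, was at 8.10 to 8.85 in wild-type, 9.09 to 9.65 in floxed and 8.53 to 9.78 in delta arrays (0.96 in floxed against wild-type, limma adjusted p = 0.166). Batf, an AP-1 factor gene, was at 7.69 to 7.82, 7.90 to 8.34 and 7.71 to 7.89 (0.32, adjusted p = 0.198).

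Several members are also made by NK cells, T cells, macrophages or dendritic cells, so markers of these cells were set beside them. In such bulk arrays more cells of a type and more RNA per cell cannot be told apart. The summed RMA intensity of 13 NK cell markers was 747 to 853 in wild-type, 1005 to 1346 in floxed and 726 to 986 in delta arrays. Limma called 0 of 13 in floxed against wild-type arrays, with 3 at an unadjusted p under 0.05, beside 12.8% of all genes. It called 0 of 13 in delta against wild-type arrays, with 4 at an unadjusted p under 0.05, beside 7.89% of all genes (median -0.06). In delta against floxed arrays it called 0 of 13, with 7 at an unadjusted p under 0.05, beside 6.42% of all genes (median -0.20). Nkg7, a granule gene of NK cells and cytotoxic T cells, was at 8.79, 6.83 and 8.01 in floxed arrays 1, 2 and 3 and at 6.68 to 6.97 in wild-type arrays. Prf1, the perforin gene, was at 8.40, 8.78 and 8.41 against 7.53 to 7.96. The defining NK cell gene Ncr1 was at 5.92, 5.47 and 6.10 in floxed arrays 1, 2 and 3, at 5.40 to 5.50 in wild-type arrays and at 4.84 to 5.44 in delta arrays, so floxed 1 and 3 were high in it as in Nkg7. Klrb1c was at 5.10, 4.38 and 5.21 in the floxed arrays and at 4.78 to 4.91 in wild-type arrays.

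The summed intensity of 12 T cell markers was 1089 to 1365 in wild-type, 1234 to 2178 in floxed and 1098 to 1596 in delta arrays. In floxed against wild-type arrays limma called 0 of 12, with 6 at an unadjusted p under 0.05, beside 12.8% of all genes. It called 0 of 12 in delta against wild-type arrays, with 0 at an unadjusted p under 0.05, beside 7.89% of all genes (median -0.07). For delta against floxed arrays it called 0 of 12, with 7 at an unadjusted p under 0.05, beside 6.42% of all genes (median -0.35). Cd3g, a chain of the T cell receptor complex, was at 8.49, 7.36 and 8.38 in floxed arrays 1, 2 and 3, against 6.19 to 7.06 in wild-type arrays, and at 8.75 in delta 4. Cd8b1, a chain of the CD8 co-receptor, was at 6.77 in floxed 2, 7.59 in floxed 3 and higher still in floxed 1, while wild-type arrays lay at 6.45 to 6.94. Mean NK cell and T cell markers were 0.019 and -0.019 relative to wild-type in floxed 2, the floxed array with the highest Tbx21, Cxcr3, Itgax and Il2rb. They lay 0.401 and 0.745 above it in floxed 1, and 0.281 and 0.556 above it in floxed 3. In delta 4 they lay 0.065 and 0.211 above it. Single markers could differ from these means: among the floxed arrays, Prf1, the myeloid marker Adgre1 and the dendritic cell marker Flt3 were highest in floxed 2. With the mean of the NK cell markers as a covariate the difference of Tbx21 in delta against wild-type arrays was 1.52 (limma adjusted p = 0.158) and that of Cxcr3 1.58 (adjusted p = 0.0669), which ended its call. With sex as a covariate that of Cxcr3 was 1.54 (limma adjusted p = 0.123). The part of these markers in the results was not tested further.

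Of 11 myeloid markers limma called 0 in floxed against wild-type arrays, with 2 at an unadjusted p under 0.05, beside 12.8% of all genes. It also called 0 in delta against wild-type and in delta against floxed arrays, with 1 and 1 at an unadjusted p under 0.05. The summed intensity of the 11 was 1439 to 1537 in wild-type, 1923 to 2325 in floxed and 1670 to 2622 in delta arrays. The mean of the myeloid markers lay 0.500, 0.111 and 0.123 above wild-type in floxed arrays 1, 2 and 3, and 0.064, 0.078, 0.115 and 0.339 above it in delta arrays 1 to 4. Their part in the results was not tested. The largest difference in that list was that of Adgre1 (1.91), at 7.09 to 7.81 in wild-type arrays and 9.20, 9.83 and 9.11 in floxed arrays 1, 2 and 3. In delta arrays 1 to 4 Adgre1 was at 8.69, 8.06, 8.38 and 10.15. The macrophage genes Csf1r, Cd14 and Fcgr1 were at 6.58 to 6.90, 5.70 to 6.01 and 6.39 to 6.48 in floxed arrays, against 6.81 to 6.99, 5.98 to 6.19 and 6.40 to 6.58 in wild-type arrays. Lyz2, a lysozyme gene, was at 8.62, 7.40 and 8.12 in floxed arrays against 6.95 to 7.81 in wild-type arrays. S100a8 was at 6.85, 5.43 and 5.63 in floxed arrays 1, 2 and 3, against 5.49 to 5.86 in wild-type arrays. In the same order S100a9 was at 7.83, 6.82 and 6.74, against 7.05 to 7.17, and Ly6g at 6.12, 5.80 and 5.51, against 5.18 to 5.69.

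Of 12 dendritic cell markers limma called 0 in floxed against wild-type arrays, with 4 at an unadjusted p under 0.05, beside 12.8% of all genes. It also called 0 in delta against wild-type and in delta against floxed arrays, with 4 and 1 at an unadjusted p under 0.05. The summed intensity of the 12 was 7340 to 9696 in wild-type, 6817 to 8719 in floxed and 7129 to 9929 in delta arrays. Zbtb46 and Clec9a, which define conventional dendritic cells, were at 7.02 to 7.28 and 5.13 to 5.44 over all arrays. Flt3 was at 7.37, 8.37 and 7.59 in floxed arrays 1, 2 and 3 and at 6.65 to 6.91 in wild-type arrays. Ccr9, a homing receptor gene, was at 6.89, 6.32 and 7.23 in floxed arrays and 5.93 to 6.50 in wild-type arrays. Of 10 plasma cell markers 1 rose and 1 fell in floxed against wild-type arrays, beside 0.391% and 0.161% of all genes: Jchain was at 8.25 to 8.43 against 6.35 to 7.17 and Sdc1 at 7.29 to 7.42 against 7.68 to 7.95. In delta arrays 1, 2 and 3 Jchain was at 7.24, 7.51 and 7.22, above the wild-type range, and in delta 4 at 7.10, within it.

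**Figure D5:**
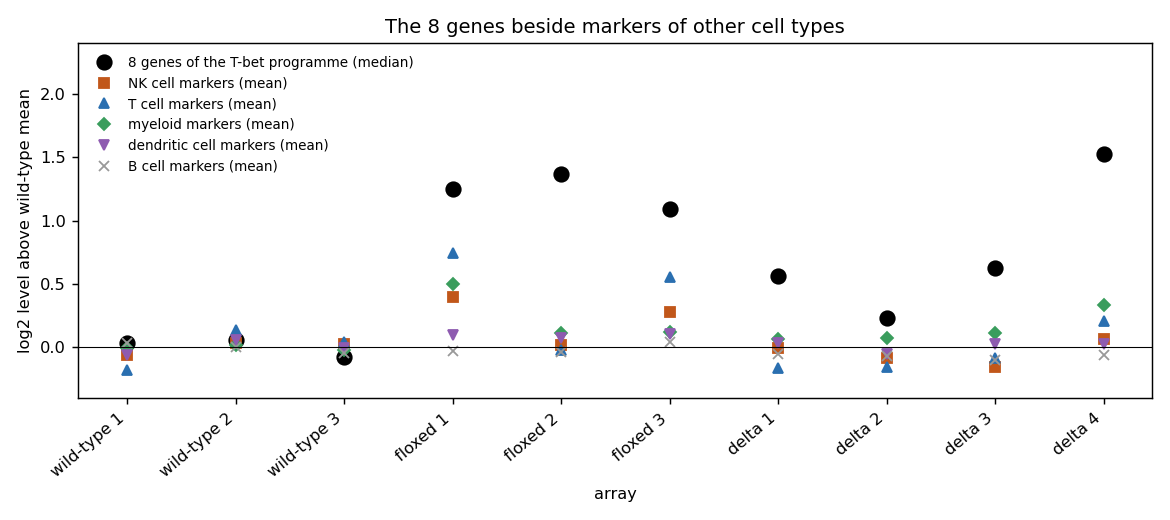
Median log2 level of the 8 genes above their wild-type means (black circles) and mean level of the markers of 5 cell types above their wild-type mean (coloured symbols), for each array. The 8 genes lie at 1.25, 1.37 and 1.10 in floxed 1, 2 and 3 and at 1.52 in delta 4. The NK cell, T cell and myeloid markers lie at 0.401, 0.745 and 0.500 in floxed 1 and at 0.281, 0.556 and 0.123 in floxed 3. In floxed 2 the same markers lie at 0.019, -0.019 and 0.111, and in delta 4 at 0.065, 0.211 and 0.339.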

How the data were processed

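RNA of sorted splenic B cells was measured on 10 single-colour arrays (3 wild-type, 3 floxed and 4 delta). The deposited values are RMA intensities, per the submitters' processing notes, and span 4.46 to 26808, so they are linear and log2 was taken. RMA corrects background, normalizes between arrays and summarises probes, which shrinks differences of dim probe sets. The RMA software is not given in the sources used here, nor is the build of the annotation. Of 34760 probe sets, 21640 carried 1 symbol, 1321 several and 11799 none; the probe set with the highest mean stood for each of 19937 genes.

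Limma 3.58.1 in R 4.3.3 estimated group means from all 10 arrays (lmFit and eBayes, 11.3 total degrees of freedom), with two-sided tests, Benjamini-Hochberg adjustment over all genes and a threshold of 0.05. The fit was tested on simulated data. The number of arrays limits the precision. The members, gene lists and alternatives were chosen with earlier results of these data known.

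Named genes are the 8 members; up to 4 genes past the threshold from each pathway list, or else up to 2 with the smallest p; the 10 highest and 5 lowest in r to Tbx21, leaving out predicted genes; and the 2 markers of each list with the largest difference. Ifng, Gzmb, Ccl3, Zeb1, Eomes, Bcl6, Ms4a1, Cd79a, Itgam, S100a8, S100a9, Ly6g, H2-Ea, Ctse, Irf1, Fcer2a, Cr2, Cd24a, Ccr7, Cxcr5, Il4ra and the defining markers were added after their values were seen.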

Additional observations from a re-analysis of the deposited data

Results flagged for a closer look

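A gap test within the 4 delta arrays (Dixon's, critical value 0.829, which chance passes in about 1 in 20 groups) was applied to 43 named genes, and 6 had an array far from the others. In each of them it was delta 4, on the high side. Among the members these were Tbx21 at 9.82 and Itgax at 9.39. The others were S1pr5 at 8.54, Itgb2 at 10.86, the T cell gene Cd8b1 at 6.77 and Trabd2b at 8.79. For Cd8b1 the gap was small: delta 1, 2 and 3 lay at 6.57 to 6.60, and delta 4 lay within the wild-type range of 6.45 to 6.94. Over all genes 5.77% had such an array on either side, and in 1.13% it was delta 4 on the high side. Several of the 6 genes follow Tbx21 closely, so these are not independent signs.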

How the results depend on the processing

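All 480 member differences kept their direction under the alternatives, and 35 lost and 14 gained a call. Many of them could not change direction. An alternative that alters only the spread, or leaves out an array of the third group, keeps both group means. Of the 8 members, 3 were called in floxed against wild-type arrays, 1 in delta against wild-type and 0 in delta against floxed (unadjusted p under 0.05 in 1). In floxed against wild-type, the counts were 0 with the NK cell covariate, with sex as a covariate or with floxed 2 as the sole floxed array (its spread then assumed from the other groups), 6 with the 2 groups alone, 6 with the replicate block, and 1 to 6 with single arrays left out. Under the first 3 of these the difference was 1.94, 2.43 and 2.42 for Tbx21 and 2.25, 1.71 and 2.51 for Cxcr3, against 2.11 and 2.04; the sex term rests on delta 1 alone. In delta against wild-type they were 0 with those 2 covariates, floxed 2 alone, the 2 groups alone, every probe set or the trend and robust prior, and 0 to 2 with single arrays left out.

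Over all genes, 110 calls in floxed against wild-type became 3 with the NK cell covariate, 2 with sex, 6 with floxed 2 alone, 193 with the 2 groups alone, 188 with the replicate block, 170 without dim genes, and 18 to 240 with single arrays left out. The 15 in delta against wild-type became 4, 3, 0, 0 and 6 under the first 5 of these, 0 with every probe set, 9 with the trend and robust prior and 0 to 23 with single arrays left out; where that count was 0, limma still gave 1313 to 1756 genes an unadjusted p under 0.05. The single call in delta against floxed became 2 with the 2 groups alone, 2 with the block, 3 with the trend and robust prior and 1 to 10 with single arrays left out, while 0 members were called there under every alternative. The causes were not tested.

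Replicate numbers did not pair the arrays: same-numbered deviations correlated at -0.08 to 0.12 over 9 pairs, and 3 arrays correlated best with their own number. Delta replicate 4 has no partner, so the replicate block leaves it out of the differences, and Tbx21 in delta against wild-type was 1.14 (limma adjusted p = 0.0233), a gained call, while Cxcr3 lost its call (1.52, adjusted p = 0.150), so the count of members called stayed at 1.

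The median r of members with Tbx21 was 0.932, and 0.783 on deviations from group means. Without delta 4, chosen after seeing the data, the latter was 0.475, and Fcrl5 turned to -0.222. The core GTGTGA in place of GGTGTGA raised the promoter count from 0 to 1 of 6.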

Other observations

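The arrays also differed in genes that vary between mouse strains, seen while looking through the genes that set delta 4 apart. H2-Ea encodes an MHC class II chain that C57BL/6 mice do not make and CBA mice do. Its log2 level was 6.23, 13.51 and 13.91 in wild-type arrays 1, 2 and 3. It was 6.09, 6.63 and 13.59 in floxed arrays 1, 2 and 3, and 6.40, 13.60, 13.62 and 13.65 in delta arrays 1 to 4. Each group thus held arrays at both levels. At the low H2-Ea level, Tbx21 was at 7.24 in wild-type 1, 9.36 and 9.70 in floxed 1 and 2 and 8.53 in delta 1. At the high H2-Ea level it was at 7.39 and 7.21 in wild-type 2 and 3 and at 9.12 in floxed 3. Delta 2, 3 and 4, also high in H2-Ea, had Tbx21 at 8.31, 8.40 and 9.82.

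Ctse, which encodes the protease cathepsin E, had the largest excess in delta 4 over the other delta arrays, 3.05 on the log2 scale. It too took separate levels, at 11.56, 11.41 and 8.32 in wild-type arrays, 9.01, 11.45 and 11.52 in floxed arrays and 8.50, 8.40, 8.11 and 11.38 in delta arrays. At the high Ctse level, Tbx21 was at 7.24 and 7.39 in wild-type 1 and 2. It was at 9.70 and 9.12 in floxed 2 and 3 and at 9.82 in delta 4, which share that level. At the low Ctse level, Tbx21 was at 7.21 in wild-type 3 and 9.36 in floxed 1. In delta 1, 2 and 3, also low in Ctse, it was at 8.53, 8.31 and 8.40. Nothing was tested on these patterns, which were chosen after their values were seen.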
